A study of Mus musculus with 16 samples.

Results

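Sleep deprivation was compared with undisturbed sleep in the brain cortex of wild type mice, in the 8 libraries of 4 deprived and 4 undisturbed animals among the 16 libraries of the series. Genes were tested where 4 or more of these 8 libraries reached 10 normalized counts, which left 14310 of 22880 genes. The animals were wild type littermates of BK deficient mice on an F1 C57Bl6/J x Sv129 background, kept 2 to a cage under a light:dark cycle. Gentle handling kept the deprived group (WT_SD) awake over the 4 h after lights went on, the undisturbed group (WT_BL) was left alone over the same hours, and both were taken at zeitgeber time 4. The other groups, used only for a side-by-side comparison at the end, were the mice labelled BK deficient under the same handling (KO_SD) and undisturbed (KO_BL). Total RNA was sequenced from single animals. The sources used here give neither age nor sex, nor which animals shared a cage.

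Mice sleep mostly in the light phase, so keeping them awake from light onset removes sleep at the time when its need is highest. Extended waking is known to raise activity-regulated transcripts and protein-folding chaperones in the cortex, and those genes were set aside here so that other functions could be described. Among these functions are feedback inhibitors of the MAPK cascade, which damp growth factor and activity signals, and secreted proteins that neurons release at synapses. Genes that answer to glucocorticoids, the adrenal hormones released in stress and around the start of the active phase, are a further group that handling and waking can reach. Cortex also holds astrocytes and vessel cells, which supply neurons with substrates and form the blood-brain barrier.

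The libraries held 14.27 to 25.5 M recovered reads. The cortex label was checked against markers. Markers of excitatory cortical neurons summed to 130529 to 162489 normalized counts in WT_BL and 117081 to 140569 in WT_SD. Markers of the striatum, which lies under the cortex, summed to 26649.5, 8224, 17169 and 6224 (WT_BL 1 to 4), then 5509, 6479, 4888 and 7377 (WT_SD 1 to 4). Their sums were thus highest in WT_BL 1 and WT_BL 3 and overlapped between the groups through WT_BL 4. All 13 of the 13 tested striatal markers had a lower mean after deprivation (median log2 fold change -1.24), which ran from -1.59 without WT_BL 4 to -0.93 without WT_BL 1. Hippocampal markers went the other way in 14 of 18 (median 0.44), mature oligodendrocyte markers in 15 of 18 (median 0.21), and 6 of 7 blood markers had a lower mean (median -0.76). None of the oligodendrocyte or hippocampal markers passed the test, while 1 striatal marker, Gpr6, fell, and so did 1 of the 7 blood markers, the erythroid haem enzyme Alas2 (log2 fold change -1.14 ± 0.188 SE, adjusted p = 0.0165). In these bulk samples, fewer cells of a type and less RNA per cell cannot be told apart. How far a differing tissue composition enters each result below was not tested gene by gene, except in a fit with the striatal score as a covariate, given with the overall counts.

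**Figure D1:**
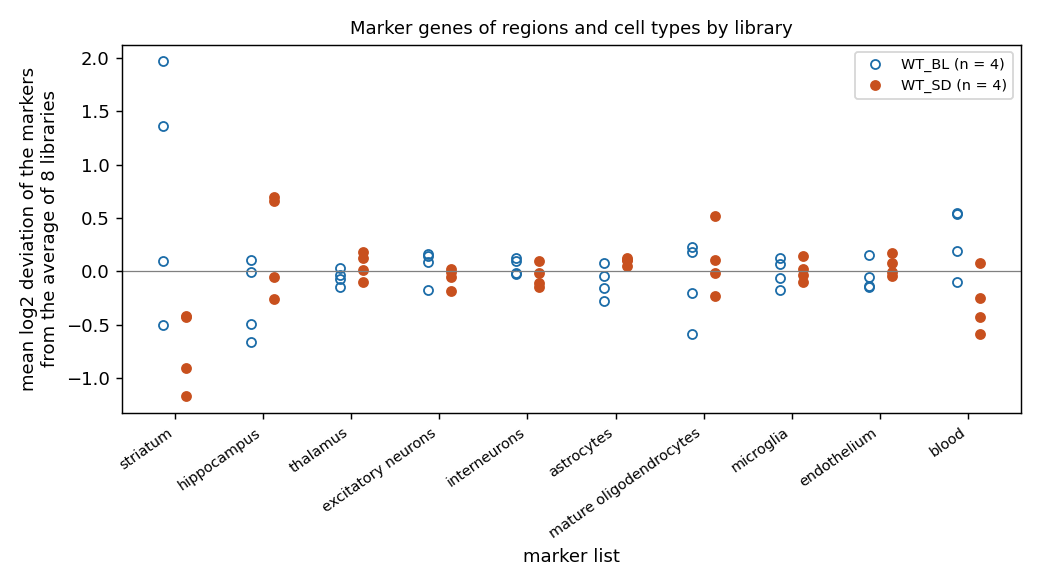
Mean log2 deviation of the marker genes of each region or cell type from the average of the 8 wild type libraries, with open circles for WT_BL and filled circles for WT_SD (4 libraries each). WT_BL 1 and WT_BL 3 stand at 1.97 and 1.36 for striatal markers, while the WT_SD libraries lie between -1.17 and -0.42.

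Between deprived and undisturbed mice 194 genes differed at an adjusted p under 0.05 (limma with Benjamini-Hochberg adjustment over all genes tested), which is 1.36% of those tested. Of these, 122 were higher in WT_SD (0.853%) and 72 were lower (0.503%). The counts of called members in the lists below are to be read beside these shares. Without any test, 49.8% of all genes tested had a higher mean in WT_SD. The edgeR test on recovered reads called 1.25%. Of the 194 genes, 28 belong to lists of immediate early genes, endoplasmic reticulum (ER) chaperones and cytosolic heat shock proteins, and all 28 were higher. The other 166 genes, 94 higher and 72 lower, are the subject here. The 4 values of each group did not overlap in 193 of the 194 genes, all but Pak7, against 10.3% of all genes tested. The test used the same values, so this separation largely follows from it and is no further support. Leaving out single libraries moved the count between 46 without WT_SD 3 and 508 without WT_SD 4. Leaving out the others, it was 91, 73, 60 and 81 without WT_BL 1 to 4, and 106 and 133 without WT_SD 1 and WT_SD 2. Outside those 3 lists, 25 genes were called with every single library left out, 20 of them higher and 5 lower. With the striatal score as a covariate, 17 of the 194 calls held. Of these, 13 lay outside the 3 lists: Sdc4, Etnppl, P4ha1, Pcsk1, Arhgap31, Cdkn1a, Dnajc1, Mfsd2a, Gjb6 and Cbln4 among the higher genes, and Wnt9a, Pla2g4e and Gm6768 among the lower ones. Gm6768, which reached the test through its WT_BL libraries alone, is given as values only. The calls of all other genes named below ended in that fit. Of the 153 genes outside the 3 lists whose calls ended, all 153 kept their sign, 70 had a log2 fold change at least as large as before, and the median was 95.8% of the value without the covariate. For Plin4 the values without and with it were 2.75 and 2.54, and for Spry4 0.91 and 0.99. The median SE of the genes outside the 3 lists was 0.115 without the covariate and 0.162 with it.

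**Figure D2:**
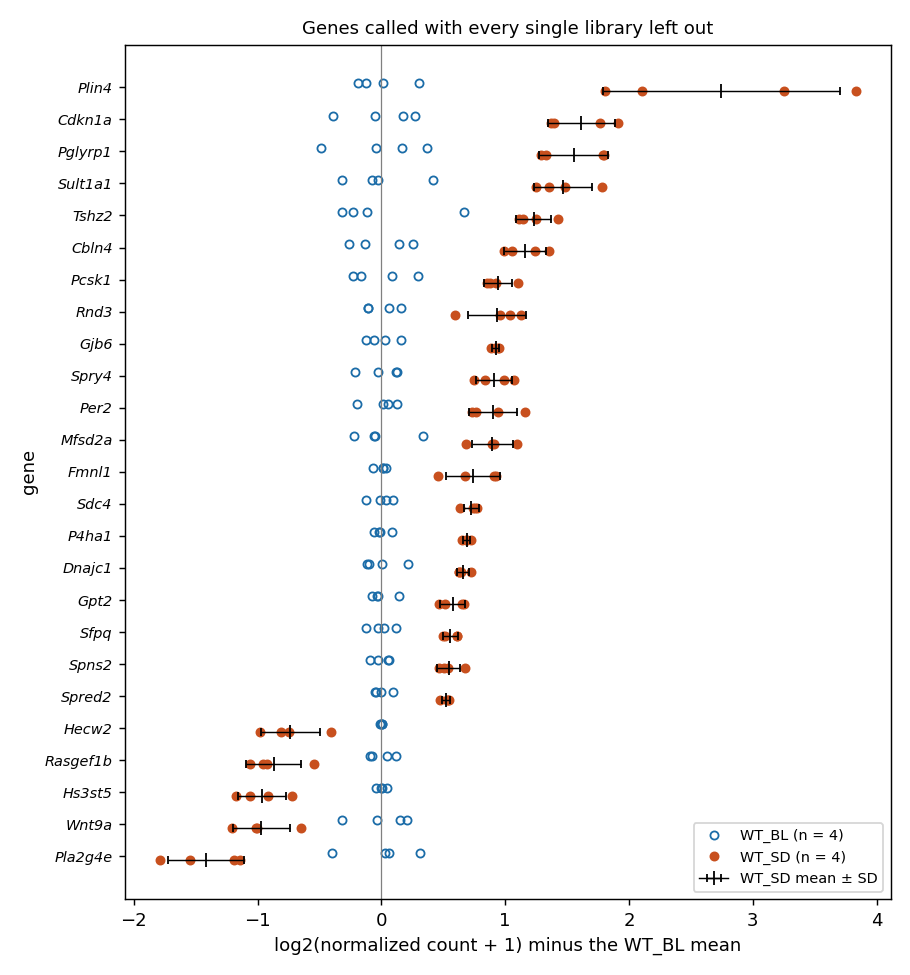
Log2(normalized count + 1) of each wild type library minus the WT_BL mean for the 25 genes called with every single library left out, outside the immediate early, ER chaperone and heat shock lists. Open circles are WT_BL, filled circles WT_SD (4 libraries each), and bars are the WT_SD mean ± SD; the groups do not overlap in any of the 25 genes.

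Of genes known to answer to glucocorticoids, 9 of 40 tested members rose and none fell, against 0.853% called higher over all genes tested. A higher mean was seen in 38 of 40, against 49.8% of all genes. The median log2 fold change was 0.45, against -0.0013 over all genes. Plin4, which encodes a perilipin that coats lipid droplets, had normalized counts of 19.7, 28, 20.6 and 22.7 (WT_BL 1 to 4), then 100, 81.3, 223 and 334 (WT_SD 1 to 4). WT_SD 3 and WT_SD 4 were the highest by far, and every deprived library was above every baseline library (log2 fold change 2.75 ± 0.385 SE, adjusted p = 0.00713). Cdkn1a, the cell cycle inhibitor p21, stood at 275, 217, 345 and 322 (WT_BL 1 to 4), then 741, 974, 1078 and 752 (WT_SD 1 to 4), a log2 fold change of 1.61 ± 0.162 SE (adjusted p = 0.00106). Sult1a1, a sulfotransferase of phenolic compounds, gave 52.5, 64.3, 88 and 62 (WT_BL 1 to 4), then 228, 157, 185 and 169 (WT_SD 1 to 4), a log2 fold change of 1.47 ± 0.18 SE (adjusted p = 0.00351). All 3 were separated between the groups. Fkbp5, a co-chaperone that lowers the hormone affinity of the glucocorticoid receptor, was 556, 496, 494 and 385 (WT_BL 1 to 4), then 877, 635, 831 and 752 (WT_SD 1 to 4), a log2 fold change of 0.68 ± 0.13 SE (adjusted p = 0.0309). Bcl6, a transcriptional repressor, rose by 0.57 on the log2 scale (± 0.111 SE, adjusted p = 0.0343). Tsc22d3, which encodes the anti-inflammatory protein GILZ, rose too (log2 fold change 0.88 ± 0.164 SE, adjusted p = 0.0274). Mfsd2a, Gjb6 and Htra1, the other called members, are described with vessel and astrocyte genes. Sgk1, a kinase often used as a marker of glucocorticoid exposure, did not pass the test. Its normalized counts were 961, 1031, 755 and 828 (WT_BL 1 to 4), then 961, 916, 2264 and 2649 (WT_SD 1 to 4), so that WT_SD 1 and WT_SD 2 lay within the baseline range and WT_SD 3 and WT_SD 4 were high (log2 fold change 0.77 ± 0.337 SE, adjusted p = 0.277). Fkbp5 was no longer called when WT_BL 2, WT_BL 3, WT_BL 4, WT_SD 1 or WT_SD 3 was left out (adjusted p up to 0.122). Bcl6 was no longer called when WT_BL 1, WT_BL 3, WT_BL 4, WT_SD 1 or WT_SD 3 was left out (adjusted p up to 0.135). Tsc22d3 was no longer called when WT_BL 1, WT_BL 2, WT_BL 3, WT_BL 4 or WT_SD 3 was left out (adjusted p up to 0.111).

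Several genes typical of astrocytes rose. Gjb6 encodes connexin 30, a gap junction protein that couples astrocytes, and lies on the minus strand of chromosome 14 (57123303 to 57133611, GRCm38). Its normalized counts were 789, 719, 646 and 675 (WT_BL 1 to 4), then 1334, 1303, 1365 and 1354 (WT_SD 1 to 4). The deprived libraries lay within a narrow band above all baseline libraries (log2 fold change 0.92 ± 0.081 SE, adjusted p = 0.000588). Sdc4 (chromosome 2, 164424247 to 164443887, minus strand) encodes syndecan 4, a heparan sulfate proteoglycan of the cell surface. It stood at 663, 635, 615 and 569.5 (WT_BL 1 to 4), then 1036, 963, 1050 and 1062 (WT_SD 1 to 4), again without overlap (log2 fold change 0.73 ± 0.0793 SE, adjusted p = 0.0017). Dio2 encodes type 2 deiodinase, which turns thyroxine into the active thyroid hormone, in the brain chiefly in astrocytes and tanycytes. Counts of Dio2 were 1493, 1339, 1605 and 1167 (WT_BL 1 to 4), then 2748, 1908, 2531 and 3084 (WT_SD 1 to 4), a log2 fold change of 0.86 ± 0.143 SE (adjusted p = 0.0169). Etnppl, an enzyme that breaks down phosphoethanolamine, had 296, 204, 207 and 169 (WT_BL 1 to 4), then 361, 466, 536 and 598 (WT_SD 1 to 4), so that WT_SD 1 was the lowest deprived library and still above WT_BL 1 (log2 fold change 1.16 ± 0.185 SE, adjusted p = 0.0139). Htra1, a secreted serine protease, rose as well (log2 fold change 0.58 ± 0.114 SE, adjusted p = 0.0343). The complement gene C4b (log2 fold change 0.88 ± 0.171 SE, adjusted p = 0.0343) and Timp4, an inhibitor of matrix metalloproteinases (log2 fold change 0.50 ± 0.0983 SE, adjusted p = 0.0343), also rose. Of 20 astrocyte markers, however, Gjb6 alone passed the test, and 17 had a higher mean (median 0.16). The summed astrocyte markers were 117014 to 155427 in WT_BL and 138883 to 163029.5 in WT_SD, overlapping ranges. Dio2 was no longer called when WT_BL 2, WT_SD 1 or WT_SD 3 was left out (adjusted p up to 0.0698). Etnppl was no longer called when WT_BL 2 or WT_SD 3 was left out (adjusted p up to 0.0668). Htra1 was no longer called when WT_BL 2, WT_BL 3, WT_BL 4, WT_SD 1 or WT_SD 3 was left out (adjusted p up to 0.114). C4b was no longer called when any library other than WT_BL 1 and WT_SD 4 was left out (adjusted p up to 0.116). Timp4 was no longer called when any library other than WT_SD 1 and WT_SD 4 was left out (adjusted p up to 0.146).

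Among 18 endothelial markers 3 rose (16.7%) and none fell, against 0.853% called higher over all genes tested. The list's median was 0.0068, and 9 of 18 had a higher mean, near the 49.8% of all genes. Mfsd2a, the transporter that carries lysophosphatidylcholine with docosahexaenoic acid across the blood-brain barrier, had normalized counts of 338, 256, 258 and 229 (WT_BL 1 to 4), then 504, 430.2, 499 and 573 (WT_SD 1 to 4). Its lowest deprived value was above its highest baseline value (log2 fold change 0.90 ± 0.132 SE, adjusted p = 0.00873). Ly6c1 and Ly6a, surface proteins of mouse brain endothelium, were the other called markers. Ly6c1 stood at 393, 284, 276 and 338 (WT_BL 1 to 4), then 528, 483, 609.5 and 560.2 (WT_SD 1 to 4), a log2 fold change of 0.76 ± 0.126 SE (adjusted p = 0.0165), and Ly6a rose by a similar log2 fold change (0.67 ± 0.134 SE, adjusted p = 0.0365). These neighbouring genes of the Ly6 family resemble each other in sequence, so reads may be shared between them. Spns2, which exports sphingosine-1-phosphate from endothelial cells, had 963, 906, 864 and 955 (WT_BL 1 to 4), then 1270, 1337, 1468 and 1306 (WT_SD 1 to 4), a log2 fold change of 0.54 ± 0.0779 SE (adjusted p = 0.00713). Pglyrp1, a secreted protein that binds bacterial peptidoglycan, was low and rose by the third largest factor of the 25 genes called with every single library left out: its counts were 51.4, 44.6, 28 and 38.4 (WT_BL 1 to 4), then 98.6, 140.4, 139.5 and 101 (WT_SD 1 to 4), a log2 fold change of 1.55 ± 0.213 SE (adjusted p = 0.00611). The calls of Mfsd2a, Spns2 and Pglyrp1 held with every library left out. Ly6c1 was no longer called when WT_BL 2, WT_BL 3 or WT_SD 3 was left out (adjusted p up to 0.0766). Ly6a was no longer called when WT_BL 2, WT_BL 3, WT_BL 4, WT_SD 1 or WT_SD 3 was left out (adjusted p up to 0.136).

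Genes of intermediary metabolism rose in small numbers. P4ha1, the catalytic subunit of collagen prolyl 4-hydroxylase and a known hypoxia target, had 977, 883, 909 and 905 (WT_BL 1 to 4), then 1520, 1444, 1483 and 1472 (WT_SD 1 to 4) normalized counts, a tight pair of groups without overlap (log2 fold change 0.69 ± 0.0701 SE, adjusted p = 0.00106). Gpt2, the mitochondrial alanine aminotransferase, stood at 1092, 964, 970.5 and 939.9 (WT_BL 1 to 4), then 1417, 1367, 1556 and 1576 (WT_SD 1 to 4), a log2 fold change of 0.58 ± 0.0823 SE (adjusted p = 0.00713). Pfkfb3, which makes the allosteric activator of phosphofructokinase and so speeds glycolysis, was 668, 577, 637 and 548 (WT_BL 1 to 4), then 908, 717, 932 and 1123 (WT_SD 1 to 4), a log2 fold change of 0.58 ± 0.127 SE (adjusted p = 0.0496). Slc5a3, the sodium-coupled transporter of the osmolyte myo-inositol, rose with a log2 fold change of 0.47 ± 0.0794 SE (adjusted p = 0.0172). Pfkfb3 was the single call among 53 genes of glycogen and glucose handling (30 with a higher mean, median 0.03), and Pfkfb3 and P4ha1 were the 2 calls among 26 hypoxia-response genes (18 higher, median 0.094). Sterol synthesis genes leaned the other way: 24 of 31 had a lower mean, the median was -0.15, and 1 passed the test. It was Insig1, which holds the sterol sensor SCAP in the ER when sterols are plentiful. Counts of Insig1 were 967, 1057, 1038 and 1087 (WT_BL 1 to 4), then 805, 755, 716 and 879.5 (WT_SD 1 to 4), a log2 fold change of -0.40 ± 0.0853 SE (adjusted p = 0.0481). Pfkfb3 was no longer called when any library other than WT_SD 2 and WT_SD 4 was left out (adjusted p up to 0.172). Slc5a3 was no longer called when WT_BL 3 or WT_BL 4 was left out (adjusted p up to 0.071). Insig1 was no longer called when any library other than WT_SD 4 was left out (adjusted p up to 0.186).

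Feedback inhibitors of the MAPK cascade rose in 5 of 28 tested members, and none fell. Over all genes tested, 0.853% were called higher. Of the 28 members 21 had a higher mean, against 49.8% of all genes, with a median of 0.16. Spry4, a Sprouty protein that blocks receptor tyrosine kinase signals to Ras, had normalized counts of 240.4, 191, 217 and 242 (WT_BL 1 to 4), then 373, 466, 396 and 442 (WT_SD 1 to 4). All deprived values exceeded all baseline values (log2 fold change 0.91 ± 0.114 SE, adjusted p = 0.00383). Spred2 and Spred3, which bind the Ras regulator neurofibromin and hold back Raf activation, were at higher levels and changed less on the log2 scale. For Spred2 the counts were 2059, 1983, 2199 and 1996 (WT_BL 1 to 4), then 2988, 2979, 2862 and 3009 (WT_SD 1 to 4), a log2 fold change of 0.52 ± 0.0691 SE (adjusted p = 0.00503). Spred3 had 903, 881, 1039 and 1023 (WT_BL 1 to 4), then 1366, 1344, 1357 and 1334 (WT_SD 1 to 4), a log2 fold change of 0.49 ± 0.0791 SE (adjusted p = 0.0147). The other called members, Dusp4 and Dusp5, are nuclear MAP kinase phosphatases that the immediate early list holds too. Dusp4 rose with a log2 fold change of 1.27 ± 0.175 SE (adjusted p = 0.00611) and Dusp5 with a log2 fold change of 1.27 ± 0.181 SE (adjusted p = 0.00713). Rnd3, a small GTP-binding protein without GTPase activity, stood at 254, 307, 254 and 286 (WT_BL 1 to 4), then 534, 565, 602 and 415 (WT_SD 1 to 4), with WT_SD 4 the lowest deprived library (log2 fold change 0.93 ± 0.126 SE, adjusted p = 0.00578). Trib2, a pseudokinase scaffold, had a log2 fold change of 0.52 ± 0.101 SE (adjusted p = 0.0324). Spred3 was no longer called when WT_SD 3 was left out (adjusted p up to 0.0698). Trib2 was no longer called when any library other than WT_SD 4 was left out (adjusted p up to 0.0925).

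Some of the genes that rose encode secreted proteins of neurons or the enzymes that process them. Pcsk1, the prohormone convertase that cleaves neuropeptide and hormone precursors, had normalized counts of 534, 448, 618 and 429 (WT_BL 1 to 4), then 922, 956, 1079 and 909.7 (WT_SD 1 to 4). The groups were separate, with WT_SD 3 highest (log2 fold change 0.94 ± 0.118 SE, adjusted p = 0.00383). It was the only call among 17 genes of prohormone processing and granins, of which 13 had a higher mean (median 0.14). Among 22 neuropeptide genes 2 rose, Nts and Vip, a share of 9.09% against 0.853% called higher over all genes tested. Nts, the precursor of neurotensin, was low, at 64.5, 61.2, 59.2 and 25.3 (WT_BL 1 to 4), then 123, 155, 139.5 and 99.2 (WT_SD 1 to 4), with WT_BL 4 below the other baseline libraries (log2 fold change 1.35 ± 0.278 SE, adjusted p = 0.0391). Vip, made by a class of cortical interneurons, stood at 781, 926, 949 and 1030 (WT_BL 1 to 4), then 1153, 1215, 1446 and 1311 (WT_SD 1 to 4), a log2 fold change of 0.48 ± 0.103 SE (adjusted p = 0.0487). Of 19 interneuron markers Vip alone passed the test and 13 had a lower mean. Cerebellins, secreted proteins that link presynaptic neurexins to postsynaptic receptors, accounted for every call among 51 synaptic adhesion genes, in which 34 had a lower mean (median -0.12). That list does not hold Slitrk1, a synapse organiser that fell and is described with axon guidance genes. Cbln4 had 266, 186, 246 and 203 (WT_BL 1 to 4), then 444, 529.6, 571 and 465 (WT_SD 1 to 4), without overlap (log2 fold change 1.16 ± 0.133 SE, adjusted p = 0.00216). Cbln2 (log2 fold change 0.53 ± 0.0995 SE, adjusted p = 0.0274) and Cbln1 (log2 fold change 0.83 ± 0.169 SE, adjusted p = 0.0375) rose less on the log2 scale. Wnt2, a secreted Wnt ligand, had counts of 66.7, 87.2, 81.4 and 74.2 (WT_BL 1 to 4), then 123, 115, 127 and 139.5 (WT_SD 1 to 4), a log2 fold change of 0.70 ± 0.139 SE (adjusted p = 0.0356). Nts was no longer called when any library other than WT_BL 4 and WT_SD 4 was left out (adjusted p up to 0.148). Vip was no longer called when any 1 of the 8 libraries was left out (adjusted p up to 0.184). Cbln1 and Wnt2 were no longer called when any library other than WT_SD 4 was left out (adjusted p up to 0.135). Cbln2 was no longer called when any library other than WT_SD 1 and WT_SD 4 was left out (adjusted p up to 0.118).

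The promoters of Pcsk1, Dio2, Nts and Vip are shown because Pcsk1, Nts and Vip are the called genes of neuropeptide precursors and their processing and because Pcsk1 and Dio2 hold the full cAMP response element TGACGTCA. Each sequence runs 5′ to 3′ on the gene's strand from 250 bases before to 50 bases after the RefSeq start site (GRCm38.p6), and capitals mark TGACG or TGACGTCA on either strand, so that CGTCA is TGACG read on the other strand.
Pcsk1, chr13:75089607-75089906, plus strand: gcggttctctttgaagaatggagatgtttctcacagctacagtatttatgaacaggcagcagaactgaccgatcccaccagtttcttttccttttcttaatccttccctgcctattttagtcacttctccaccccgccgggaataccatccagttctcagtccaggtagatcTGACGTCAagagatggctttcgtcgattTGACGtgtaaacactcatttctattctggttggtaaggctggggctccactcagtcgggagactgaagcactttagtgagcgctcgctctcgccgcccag
Dio2, chr12:90738989-90739288, minus strand: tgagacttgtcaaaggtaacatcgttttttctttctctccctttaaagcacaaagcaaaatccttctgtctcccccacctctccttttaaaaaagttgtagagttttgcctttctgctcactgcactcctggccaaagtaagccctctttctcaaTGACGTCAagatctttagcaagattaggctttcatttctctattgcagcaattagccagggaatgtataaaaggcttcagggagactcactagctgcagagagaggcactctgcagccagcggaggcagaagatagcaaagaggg
Nts, chr10:102490369-102490668, minus strand: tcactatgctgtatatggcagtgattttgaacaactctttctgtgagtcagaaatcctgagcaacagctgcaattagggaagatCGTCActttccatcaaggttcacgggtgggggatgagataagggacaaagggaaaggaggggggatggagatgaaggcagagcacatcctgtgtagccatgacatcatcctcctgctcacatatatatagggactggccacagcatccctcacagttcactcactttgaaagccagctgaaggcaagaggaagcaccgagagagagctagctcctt
Vip, chr10:5638968-5639267, plus strand: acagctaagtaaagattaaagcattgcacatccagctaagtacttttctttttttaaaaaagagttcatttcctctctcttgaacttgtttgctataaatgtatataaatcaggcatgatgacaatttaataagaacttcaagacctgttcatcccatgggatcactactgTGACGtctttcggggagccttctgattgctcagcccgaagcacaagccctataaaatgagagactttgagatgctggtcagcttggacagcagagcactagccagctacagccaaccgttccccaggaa
The Pcsk1 window held 3 matches of TGACG counted on both strands, of which 2 fall within the single palindromic TGACGTCA. Dio2 held 2, both within its TGACGTCA, and Nts and Vip held 1 each. A promoter window was found for 10738 of the tested genes. Of these, 3.53% held TGACGTCA and 34.3% held TGACG. Among the genes called higher outside the 3 lists, 5 of 71 held TGACGTCA (7.04%) and 28 of 71 held TGACG (39.4%). Among those called lower, 2 of 55 held TGACGTCA (3.64%) and 15 of 55 held TGACG (27.3%). The ER stress response element, searched as CCAAT followed by CCACG with 9 bases of any kind between them on either strand, was in 0.177% of tested promoters, in 5 of all 95 promoters of genes called higher (5.26%) and in 0 of the 71 outside the 3 lists. The AP-1 motif TGANTCA was in 6.22% of tested promoters, in 4 of the 71 (5.63%) and in 5 of the 55 (9.09%). A match describes letters in the window and says nothing on binding.

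Outside the chaperones, a few other genes of the secretory pathway rose. Dnajc1, a J-domain protein of the ER membrane that recruits the chaperone BiP, had 491, 391, 425 and 395 (WT_BL 1 to 4), then 656, 663, 654 and 702 (WT_SD 1 to 4) normalized counts (log2 fold change 0.66 ± 0.0926 SE, adjusted p = 0.00701), and its call held with every library left out. Stt3b, a catalytic subunit of the oligosaccharyltransferase that attaches N-glycans, stood at 1768, 1958, 1865 and 1917 (WT_BL 1 to 4), then 2438, 2436, 2410 and 2488 (WT_SD 1 to 4), a log2 fold change of 0.38 ± 0.068 SE (adjusted p = 0.0224). Ostc, another subunit of that complex, was 551, 548, 537 and 531 (WT_BL 1 to 4), then 665, 786, 734 and 659 (WT_SD 1 to 4), a log2 fold change of 0.39 ± 0.0837 SE (adjusted p = 0.0486). Stt3b and Ostc were the 2 calls among 50 genes of ER translocation and glycosylation, of which 41 had a higher mean (median 0.11). No gene of ER-associated degradation (27 tested, 18 higher, median 0.024) or of ER to Golgi transport (53 tested, 35 higher, median 0.048) passed the test. Ormdl2, which restrains the first enzyme of sphingolipid synthesis, had 87.4, 74.7, 88 and 86.5 (WT_BL 1 to 4), then 152, 132, 151 and 154 (WT_SD 1 to 4), with WT_BL 2 and WT_SD 2 the lowest of their groups (log2 fold change 0.80 ± 0.126 SE, adjusted p = 0.0128). Serinc2, a membrane protein of the family named for incorporating serine into lipids, stood at 92.9, 102, 97 and 159 (WT_BL 1 to 4), then 192, 249, 264 and 267 (WT_SD 1 to 4), with WT_BL 4 the highest baseline library (log2 fold change 1.13 ± 0.182 SE, adjusted p = 0.0151). Galnt9, an enzyme that starts mucin-type O-glycans, rose with a log2 fold change of 0.72 ± 0.144 SE (adjusted p = 0.0356). Stt3b was no longer called when WT_BL 1, WT_BL 2, WT_BL 3, WT_BL 4 or WT_SD 3 was left out (adjusted p up to 0.0945). Ostc was no longer called when any library other than WT_SD 4 was left out (adjusted p up to 0.186). Ormdl2 was no longer called when WT_SD 3 was left out (adjusted p up to 0.0698). Serinc2 was no longer called when WT_BL 2, WT_BL 3 or WT_SD 3 was left out (adjusted p up to 0.0698). Galnt9 was no longer called when any library other than WT_SD 1 and WT_SD 4 was left out (adjusted p up to 0.134).

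Several further genes that rose belong to no list counted here and are given singly. Fmnl1, a formin that elongates actin filaments, had normalized counts of 2624, 2486, 2670 and 2631 (WT_BL 1 to 4), then 3581, 4931, 4876 and 4163 (WT_SD 1 to 4). WT_SD 1 was the lowest deprived library and lay above all baseline libraries (log2 fold change 0.74 ± 0.102 SE, adjusted p = 0.00611). Mical2, which oxidises actin and so disassembles filaments, stood at 7161, 7472, 7778 and 7591 (WT_BL 1 to 4), then 9090, 9509, 11680 and 11990 (WT_SD 1 to 4), a log2 fold change of 0.48 ± 0.0979 SE (adjusted p = 0.0368). Its relative Micalcl, which has no enzyme domain, was low, at 41.5, 39.4, 41.9 and 70.8 (WT_BL 1 to 4), then 101, 113, 92 and 108 (WT_SD 1 to 4), with WT_BL 4 apart from the other baseline libraries (log2 fold change 1.12 ± 0.199 SE, adjusted p = 0.0224). Arpc5, a subunit of the branching Arp2/3 complex, had a log2 fold change of 0.47 ± 0.0973 SE (adjusted p = 0.0398), and Tpm4, a tropomyosin, had a log2 fold change of 0.49 ± 0.104 SE (adjusted p = 0.0474). Ina, the neuronal intermediate filament alpha-internexin, was 4090, 4331, 4297 and 5015 (WT_BL 1 to 4), then 5682, 6942, 6903 and 6256 (WT_SD 1 to 4), a log2 fold change of 0.54 ± 0.092 SE (adjusted p = 0.0188). Plekhg4, a guanine nucleotide exchange factor, was low and had counts of 39.3, 23.9, 33.7 and 43.7 (WT_BL 1 to 4), then 80, 151, 140.5 and 79.8 (WT_SD 1 to 4), a log2 fold change of 1.63 ± 0.263 SE (adjusted p = 0.0151). Arhgap31, a GTPase-activating protein for Cdc42 and Rac1, rose with a log2 fold change of 0.57 ± 0.111 SE (adjusted p = 0.0343). Genes that act on the cytoskeleton were called in both directions: Myh10, a heavy chain of nonmuscle myosin, fell (log2 fold change -0.45 ± 0.0938 SE, adjusted p = 0.0448), and so did Eml2, a microtubule-associated protein (log2 fold change -0.41 ± 0.0826 SE, adjusted p = 0.0365). Mical2 was no longer called when WT_BL 1, WT_BL 2, WT_BL 3, WT_BL 4 or WT_SD 3 was left out (adjusted p up to 0.151). Micalcl and Myh10 were no longer called when any library other than WT_BL 4 and WT_SD 4 was left out (adjusted p up to 0.177). Arpc5 and Tpm4 were no longer called when any library other than WT_SD 4 was left out (adjusted p up to 0.162). Ina was no longer called when WT_BL 1, WT_BL 2, WT_BL 3 or WT_SD 3 was left out (adjusted p up to 0.0883). Plekhg4 was no longer called when WT_SD 3 was left out (adjusted p up to 0.0698). Arhgap31 was no longer called when WT_BL 2, WT_BL 3, WT_BL 4, WT_SD 1 or WT_SD 3 was left out (adjusted p up to 0.116). Eml2 was no longer called when any library other than WT_SD 2 and WT_SD 4 was left out (adjusted p up to 0.102).

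A few of the higher genes act in RNA processing and methyl transfer. Sfpq, a splicing and paraspeckle protein, had 2518, 2786, 2353 and 2606 (WT_BL 1 to 4), then 3912, 3613, 3905 and 3655 (WT_SD 1 to 4) normalized counts, with both groups tight and apart (log2 fold change 0.56 ± 0.0764 SE, adjusted p = 0.00611). Papola, a poly(A) polymerase, had a log2 fold change of 0.35 ± 0.075 SE (adjusted p = 0.0494). Mat2a, which makes the methyl donor S-adenosylmethionine, was 2848, 3000, 2783 and 3109 (WT_BL 1 to 4), then 4131, 3534, 4166 and 4372 (WT_SD 1 to 4), a log2 fold change of 0.46 ± 0.0836 SE (adjusted p = 0.0245). Mettl16, an RNA methyltransferase known to act on Mat2a transcripts, rose by a smaller factor (log2 fold change 0.37 ± 0.0789 SE, adjusted p = 0.0481). Tet3, which oxidises methylated cytosine in DNA, was the only call among 77 genes for enzymes that modify histones and DNA (log2 fold change 0.40 ± 0.0743 SE, adjusted p = 0.0274). Of 65 splicing and RNA-binding factors, a list that does not hold Sfpq, Cirbp, a cold-inducible RNA-binding protein, was the only call and fell (log2 fold change -0.64 ± 0.113 SE, adjusted p = 0.0224), while 50 of the 65 had a higher mean (median 0.089). The mitochondrial ribosomal RNAs mt-Rnr1 (log2 fold change 0.60 ± 0.104 SE, adjusted p = 0.0209) and mt-Rnr2 (log2 fold change 0.53 ± 0.108 SE, adjusted p = 0.0391) rose. Together they took 0.662%, 0.845%, 0.725% and 0.835% of normalized counts (WT_BL 1 to 4), then 1.21%, 1.23%, 1.17% and 0.906% (WT_SD 1 to 4; two-sided exact permutation test, p = 0.0286, the smallest that 4 against 4 can give). The share sums these called genes in the same libraries, so its test adds no independent support. The 7 tested protein-coding genes of the mitochondrial genome had no call, and their median was 0.061. Papola and mt-Rnr2 were no longer called when any library other than WT_SD 4 was left out (adjusted p up to 0.167). Mat2a was no longer called when any library other than WT_SD 2 and WT_SD 4 was left out (adjusted p up to 0.108). Mettl16 was no longer called when any 1 of the 8 libraries was left out (adjusted p up to 0.136). Tet3 was no longer called when any library other than WT_BL 4 and WT_SD 4 was left out (adjusted p up to 0.114). Cirbp was no longer called when WT_BL 1, WT_BL 2, WT_BL 4, WT_SD 1 or WT_SD 3 was left out (adjusted p up to 0.0783). mt-Rnr1 was no longer called when WT_BL 1, WT_BL 3, WT_SD 1 or WT_SD 3 was left out (adjusted p up to 0.0945).

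Further neuronal and clock genes rose. Tshz2, a zinc finger homeobox gene used as a deep-layer marker, had 719, 1421, 763 and 829 (WT_BL 1 to 4), then 2135, 2408, 1935 and 1980 (WT_SD 1 to 4), where WT_BL 2 was far above the other baseline libraries and still below every deprived one (log2 fold change 1.23 ± 0.185 SE, adjusted p = 0.011). Camk1g, a calcium/calmodulin-dependent kinase, stood at 585, 466, 594 and 574 (WT_BL 1 to 4), then 749, 1034, 1047 and 881 (WT_SD 1 to 4), a log2 fold change of 0.73 ± 0.122 SE (adjusted p = 0.0169). Slc17a6, the vesicular glutamate transporter VGLUT2, was 415, 514, 558 and 382 (WT_BL 1 to 4), then 749, 721, 784 and 736 (WT_SD 1 to 4), a log2 fold change of 0.69 ± 0.118 SE (adjusted p = 0.0187). It is also a marker of thalamus, a list in which it was the only call among 11 and 7 had a higher mean (median 0.13). Sgsm1, a regulator of Rab and Rap GTPases, had a log2 fold change of 0.86 ± 0.13 SE (adjusted p = 0.0106). In the circadian clock list 3 of 28 rose and 1 fell, with 15 at a lower mean. The share called either way was 14.3%, against 1.36% over all genes tested. Per2, a repressor of the clock, had counts of 573, 682, 661 and 718 (WT_BL 1 to 4), then 1116, 1263, 1464 and 1090 (WT_SD 1 to 4), a log2 fold change of 0.90 ± 0.11 SE (adjusted p = 0.00351). Bhlhe40 (log2 fold change 0.54 ± 0.093 SE, adjusted p = 0.0203) and Nfil3 (log2 fold change 0.65 ± 0.12 SE, adjusted p = 0.0268) rose, and the output factor Dbp fell (log2 fold change -0.61 ± 0.116 SE, adjusted p = 0.0309). Camk1g was no longer called when WT_BL 2 or WT_SD 3 was left out (adjusted p up to 0.0766). Slc17a6 was no longer called when WT_BL 1 or WT_SD 3 was left out (adjusted p up to 0.0835). Sgsm1 was no longer called when WT_SD 3 was left out (adjusted p up to 0.0533). Bhlhe40 was no longer called when WT_BL 1, WT_BL 2, WT_BL 3, WT_BL 4 or WT_SD 3 was left out (adjusted p up to 0.0874). Nfil3 was no longer called when any library other than WT_SD 1 and WT_SD 4 was left out (adjusted p up to 0.116). Dbp was no longer called when WT_BL 2, WT_BL 3, WT_BL 4, WT_SD 1 or WT_SD 3 was left out (adjusted p up to 0.0925).

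Of the 72 genes that fell, 5 were called with every library left out. Pla2g4e, which makes N-acyl phosphatidylethanolamines, the precursors of anandamide and its relatives, lies on chromosome 2 (120166412 to 120245335, minus strand). Its normalized counts were 291, 298, 217 and 354 (WT_BL 1 to 4), then 125, 82.1, 97 and 129 (WT_SD 1 to 4), and every deprived library was below every baseline one (log2 fold change -1.41 ± 0.182 SE, adjusted p = 0.00417). Rasgef1b, an exchange factor for Rap and Ras proteins, had 1443, 1251, 1376 and 1261 (WT_BL 1 to 4), then 638, 684, 702 and 912 (WT_SD 1 to 4), with WT_SD 4 nearest to baseline (log2 fold change -0.87 ± 0.111 SE, adjusted p = 0.00392). Hecw2, a ubiquitin ligase of the HECT class, was 1615, 1610, 1594 and 1608 (WT_BL 1 to 4), then 956, 815, 918 and 1215 (WT_SD 1 to 4), a log2 fold change of -0.73 ± 0.109 SE (adjusted p = 0.00904). WT_SD 4 was again the deprived library closest to the narrow baseline group. Hs3st5, which adds a rare sulfate to heparan sulfate, stood at 115, 119, 122 and 118 (WT_BL 1 to 4), then 52, 62.4, 56.4 and 71.3 (WT_SD 1 to 4), a log2 fold change of -0.97 ± 0.143 SE (adjusted p = 0.00904). Wnt9a, a secreted Wnt ligand, had 376, 539.5, 457 and 519.7 (WT_BL 1 to 4), then 233, 202, 232 and 298 (WT_SD 1 to 4), a log2 fold change of -0.97 ± 0.144 SE (adjusted p = 0.00922). With the striatal score as a covariate, the log2 fold changes were -1.64 for Pla2g4e, -0.71 for Rasgef1b, -0.71 for Hecw2, -0.92 for Hs3st5 and -1.20 for Wnt9a. The calls of Rasgef1b, Hecw2 and Hs3st5 ended in that fit (adjusted p = 0.139, 0.154 and 0.154).

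Some further lower genes are given singly, since no list of Wnt or polarity genes was counted. Vangl2, a membrane protein at the core of planar cell polarity, had normalized counts of 259, 255, 274 and 252 (WT_BL 1 to 4), then 176, 182, 167 and 164 (WT_SD 1 to 4), 2 tight groups (log2 fold change -0.59 ± 0.0978 SE, adjusted p = 0.0169). Ptk7, a pseudokinase receptor of the same pathway, was 251, 257, 242 and 285 (WT_BL 1 to 4), then 147, 171, 155 and 187 (WT_SD 1 to 4), a log2 fold change of -0.65 ± 0.114 SE (adjusted p = 0.0217). Dact2, an inhibitor of Wnt and TGF-beta signals, stood at 1052, 1352, 1520 and 1317 (WT_BL 1 to 4), then 486, 800.5, 810.3 and 758 (WT_SD 1 to 4), with WT_SD 1 well below the other deprived libraries (log2 fold change -0.89 ± 0.165 SE, adjusted p = 0.0268). Wnt2, described above, was called in the other direction. Bmp3, a growth factor that antagonises other bone morphogenetic proteins, fell (log2 fold change -0.59 ± 0.12 SE, adjusted p = 0.0381). It was 1 of 2 calls among 38 growth factors of the TGF-beta and other families, in which the other call, a higher one, belongs to the immediate early genes, and 19 members had a higher and 19 a lower mean. Dcx, the microtubule protein of migrating young neurons, had a log2 fold change of -0.61 ± 0.119 SE (adjusted p = 0.0343). Vangl2 was no longer called when WT_BL 3 or WT_SD 3 was left out (adjusted p up to 0.0826). Ptk7 and Bmp3 were no longer called when any library other than WT_SD 2 and WT_SD 4 was left out (adjusted p up to 0.124). Dact2 was no longer called when WT_BL 2, WT_BL 3, WT_BL 4 or WT_SD 3 was left out (adjusted p up to 0.0916). Dcx was no longer called when WT_BL 1, WT_BL 2, WT_BL 4, WT_SD 2 or WT_SD 3 was left out (adjusted p up to 0.128).

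Cell contact genes leaned lower with few calls. Of 95 cadherins and protocadherins 1 fell (1.05%), against 0.503% called lower over all genes tested. Of the 95, 73 had a lower mean (median -0.10), and 23.2% had a higher one, against 49.8% of all genes. The called gene, Pcdh10, had normalized counts of 4711, 4176, 4889 and 4249 (WT_BL 1 to 4), then 3083, 2943, 2563 and 3631 (WT_SD 1 to 4), a log2 fold change of -0.57 ± 0.106 SE (adjusted p = 0.0268). Among 75 axon guidance genes 51 had a lower mean (median -0.088), and 2 fell, a share of 2.67%. These were Sema6b, a transmembrane semaphorin, at 1528, 1521, 2039 and 1507 (WT_BL 1 to 4), then 926, 1273, 1075 and 1060 (WT_SD 1 to 4), a log2 fold change of -0.60 ± 0.121 SE (adjusted p = 0.0365), and Slitrk1. The latter is an organiser of excitatory synapses that entered the list by its symbol (log2 fold change -0.49 ± 0.095 SE, adjusted p = 0.032). Cdhr1, a cadherin-related protein known from photoreceptors and olfactory bulb neurons, fell by the largest factor of the genes named here apart from Gm6768, from a WT_BL mean of 570 ± 234 to a WT_SD mean of 138 ± 63.9 (SD, 4 animals each; log2 fold change -2.07 ± 0.386 SE, adjusted p = 0.0365). Chpf2, which extends chondroitin, fell (log2 fold change -0.50 ± 0.101 SE, adjusted p = 0.0383), as did B3galt1, a galactosyltransferase (log2 fold change -0.77 ± 0.155 SE, adjusted p = 0.0365), while other enzymes that build sugar chains, such as Galnt9 and Stt3b, rose (values above). Of 44 genes of the extracellular matrix and perineuronal nets, none fell and Timp4 rose. Pcdh10 was no longer called when any library other than WT_SD 4 was left out (adjusted p up to 0.0965). Sema6b, Chpf2 and B3galt1 were no longer called when any library other than WT_SD 2 and WT_SD 4 was left out (adjusted p up to 0.128). Slitrk1 was no longer called when any library other than WT_BL 4 and WT_SD 4 was left out (adjusted p up to 0.127). Cdhr1 was no longer called when WT_BL 1, WT_BL 3, WT_BL 4, WT_SD 2 or WT_SD 3 was left out (adjusted p up to 0.159).

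Ion channel lists were lower in most members although few passed the test. Over all genes tested, 49.8% had a higher mean and 0.503% were called lower. Of 80 potassium channel genes 64 had a lower mean and the median was -0.22; 1 fell and 1 rose. Kcnh2, the ERG channel, had 561, 563, 675 and 602 (WT_BL 1 to 4), then 299, 436, 411 and 422 (WT_SD 1 to 4), a log2 fold change of -0.63 ± 0.126 SE (adjusted p = 0.0366). Kcnn2, a small-conductance calcium-activated channel, had 606, 817, 551 and 705 (WT_BL 1 to 4), then 968, 997, 1061 and 883 (WT_SD 1 to 4), a log2 fold change of 0.56 ± 0.119 SE (adjusted p = 0.0474). Of 35 sodium and calcium channel genes 31 had a lower mean (median -0.21) and 2 fell. They were Scn7a, a sodium-sensing relative of the voltage-gated channels (log2 fold change -1.0 ± 0.19 SE, adjusted p = 0.0301), and Cacng6, a calcium channel gamma subunit (log2 fold change -1.34 ± 0.281 SE, adjusted p = 0.0441). Of 40 glutamate and GABA receptor genes 32 had a lower mean (median -0.14), and Gabrd, the delta subunit of extrasynaptic GABA-A receptors, fell (log2 fold change -0.55 ± 0.114 SE, adjusted p = 0.0421). Striatal markers, lower in all 13 members, moved with these lists, and channel genes are expressed in striatal neurons too. The medians of these channel and receptor lists kept their sign with the striatal score as a covariate. How large a part the striatal shift has in them was not tested. Kcnh2 was no longer called when WT_BL 1, WT_BL 2, WT_BL 3, WT_BL 4 or WT_SD 3 was left out (adjusted p up to 0.122). Kcnn2 was no longer called when any library other than WT_BL 2 and WT_SD 4 was left out (adjusted p up to 0.179). Scn7a was no longer called when any library other than WT_SD 1 and WT_SD 4 was left out (adjusted p up to 0.116). Cacng6 was no longer called when WT_SD 1, WT_SD 2 or WT_SD 3 was left out (adjusted p up to 0.157). Gabrd was no longer called when any library other than WT_SD 4 was left out (adjusted p up to 0.143).

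Receptors for peptides and amines fell singly. Oprk1, the kappa opioid receptor, had normalized counts of 454, 302, 374 and 239 (WT_BL 1 to 4), then 168, 88.7, 99.9 and 206 (WT_SD 1 to 4), a log2 fold change of -1.32 ± 0.275 SE (adjusted p = 0.0462). Sstr1, a somatostatin receptor, stood at 222, 242, 338 and 228 (WT_BL 1 to 4), then 156, 153, 129.6 and 172 (WT_SD 1 to 4), a log2 fold change of -0.74 ± 0.151 SE (adjusted p = 0.039). Hrh3, the histamine autoreceptor that is also found on other neurons, stood at 1590, 1242, 1772 and 1565 (WT_BL 1 to 4), then 785, 1149, 857 and 934 (WT_SD 1 to 4), a log2 fold change of -0.73 ± 0.132 SE (adjusted p = 0.0245). Hrh3 was the only call among 42 receptors for monoamines, adenosine and acetylcholine, of which 24 had a lower mean. The orphan receptor Gpr153 had 479, 416, 550.2 and 417 (WT_BL 1 to 4), then 225, 249.6, 212 and 339 (WT_SD 1 to 4), a log2 fold change of -0.87 ± 0.152 SE (adjusted p = 0.0207). Gpr6, a receptor of striatal neurons, is itself a striatal marker and so enters the striatal sums, which it followed in WT_BL. It had 154, 79.9, 136 and 37.6 (WT_BL 1 to 4), then 29.3, 25.4, 22.8 and 23.2 (WT_SD 1 to 4), a log2 fold change of -1.79 ± 0.369 SE (adjusted p = 0.0403). Gucy1a3, a subunit of the nitric oxide receptor, fell with a log2 fold change of -0.53 ± 0.0987 SE (adjusted p = 0.0268). Oprk1 and Sstr1 were no longer called when any library other than WT_SD 4 was left out (adjusted p up to 0.169). Hrh3 and Gucy1a3 were no longer called when WT_BL 1, WT_BL 3, WT_BL 4, WT_SD 1 or WT_SD 3 was left out (adjusted p up to 0.114). Gpr153 was no longer called when WT_BL 1, WT_BL 2, WT_BL 3, WT_SD 1 or WT_SD 3 was left out (adjusted p up to 0.0835). Gpr6 was no longer called when any library other than WT_BL 4 and WT_SD 4 was left out (adjusted p up to 0.151).

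Regulators of small GTPases and ubiquitin ligases supplied further lower genes. Arhgap22, which inactivates Rac1, had 141, 133, 128 and 155 (WT_BL 1 to 4), then 66.6, 62.4, 89 and 82.1 (WT_SD 1 to 4), a log2 fold change of -0.89 ± 0.152 SE (adjusted p = 0.0187). Arhgap42, another GTPase-activating protein, had a log2 fold change of -0.56 ± 0.118 SE (adjusted p = 0.0457), and Rassf3, a Ras association protein, had a log2 fold change of -0.80 ± 0.139 SE (adjusted p = 0.0207). Of 217 ubiquitin ligase and F-box genes 5 fell, none rose and 132 had a lower mean (median -0.042). The genes that fell made up 2.3% of the list, against 0.503% called lower over all genes tested. Beside Hecw2, these included Fbxl4, an F-box protein tied to mitochondrial DNA maintenance (log2 fold change -0.63 ± 0.111 SE, adjusted p = 0.0223), Klhl33 (log2 fold change -1.05 ± 0.2 SE, adjusted p = 0.0301) and Rnf144a (log2 fold change -0.47 ± 0.095 SE, adjusted p = 0.0365). The remaining one, Klhl38, passed the filter on low values through its WT_BL libraries alone, so nothing is read from it. Of 393 zinc finger genes 3 fell and none rose, a share of 0.763% against 0.503% called lower over all genes tested. They were Zfp46 (log2 fold change -0.47 ± 0.0835 SE, adjusted p = 0.0224), Zbtb22 (log2 fold change -0.52 ± 0.0949 SE, adjusted p = 0.0256) and Zfp316 (log2 fold change -0.46 ± 0.0986 SE, adjusted p = 0.0463). Arhgap22 was no longer called when WT_BL 1, WT_BL 2, WT_BL 3 or WT_BL 4 was left out (adjusted p up to 0.0612). Arhgap42, Klhl33, Rnf144a and Zfp316 were no longer called when any library other than WT_SD 4 was left out (adjusted p up to 0.162). Rassf3 and Zbtb22 were no longer called when WT_BL 2, WT_BL 3, WT_BL 4, WT_SD 1 or WT_SD 3 was left out (adjusted p up to 0.0916). Fbxl4 was no longer called when WT_BL 1, WT_BL 2, WT_BL 3, WT_BL 4 or WT_SD 3 was left out (adjusted p up to 0.0958). Zfp46 was no longer called when WT_BL 1, WT_BL 2, WT_BL 3, WT_SD 1 or WT_SD 3 was left out (adjusted p up to 0.0946).

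Large housekeeping sets shifted by small amounts without a call. Of 79 cytosolic ribosomal protein genes 75 had a higher mean, with a median log2 fold change of 0.22, against 49.8% and -0.0013 over all genes tested. Their summed counts were 156406 to 191412 in WT_BL and 173887 to 234283 in WT_SD, so that the groups overlapped, and the median ran from 0.14 without WT_BL 1 to 0.29 without WT_SD 4. Nuclear-encoded respiratory chain genes had a higher mean in 78 of 91 (median 0.12), proteasome genes in 38 of 46 (0.13), mitochondrial ribosomal proteins in 62 of 77 (0.11) and ribosome biogenesis genes in 52 of 64 (0.083). The respiratory chain median ran from 0.057 without WT_BL 1 to 0.19 without WT_SD 1. Translation factors (49 tested), autophagy and lysosome genes (46), tRNA synthetases (21) and inflammation and cytokine genes (41) also held no call, with medians of 0.09, 0.00057, 0.061 and 0.027. Members of a list are not independent of each other, and no test was made of these medians.

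**Figure D3:**
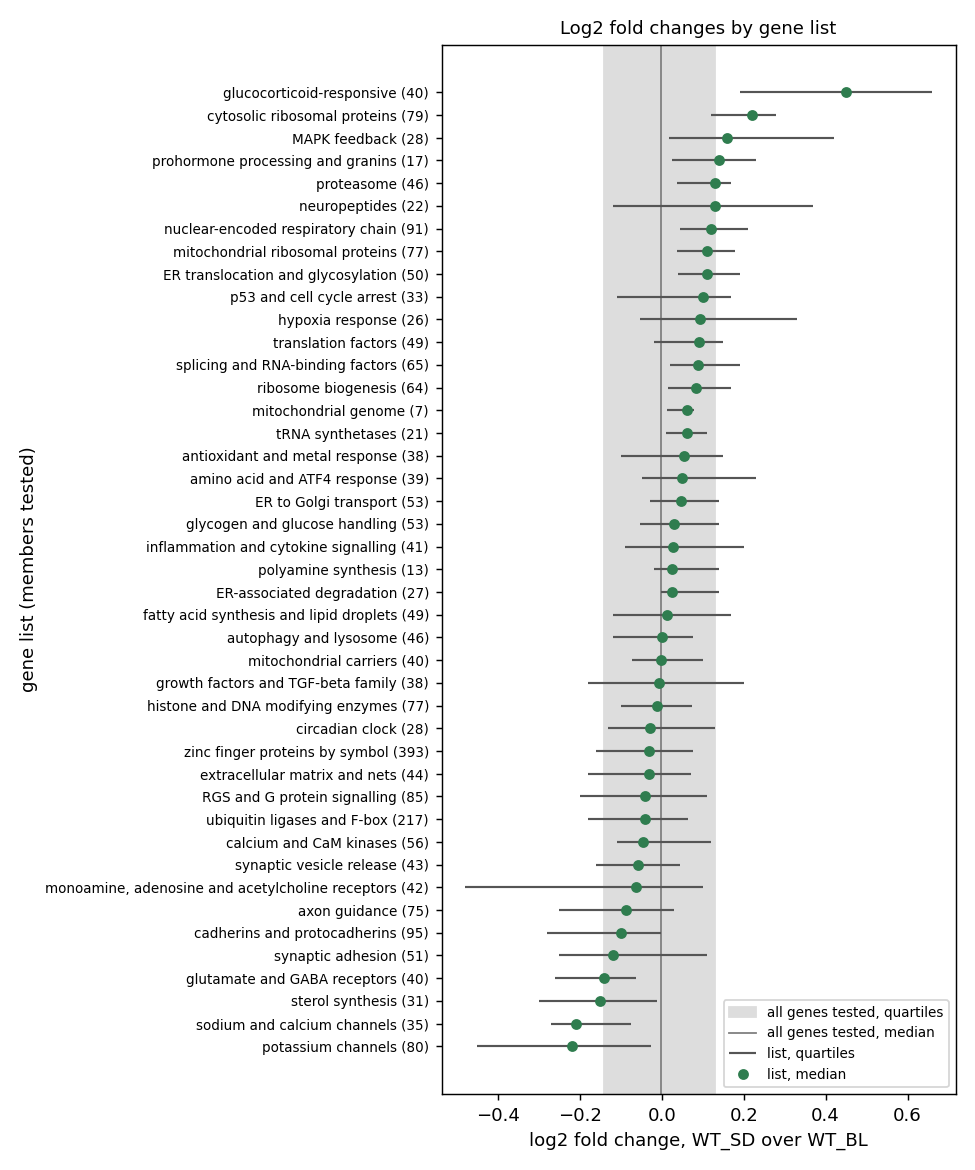
Median (points) and quartiles (lines) of the log2 fold change of WT_SD over WT_BL for lists of genes by function or family with at least 5 tested members, whose number stands in brackets (cell type markers and the 3 lists set aside are not drawn); the grey band and line give the quartiles (-0.14 and 0.13) and median of all genes tested. Among the lists drawn, glucocorticoid-responsive genes lie highest at 0.45 and potassium channels lowest at -0.22. The lists were chosen with earlier results of these data known.

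The same contrast was measured in 4 KO_SD against 4 KO_BL mice, animals that the wild type comparison did not use. Kcnma1, which encodes the BK channel pore, had a mean of 1807 ± 351 normalized counts in KO_BL, 1087 ± 671 in KO_SD, 1534 ± 356 in WT_BL and 1106 ± 339 in WT_SD (SD, 4 animals each), and so did not separate the genotypes. The genotype is therefore given as labelled. Of the 194 genes called in wild type, 191 had a difference of the same sign there, against 78.2% of all genes tested. With an unadjusted p under 0.05 as well, 142 of 194 did so, against 11.9%. For the 166 genes outside the 3 lists, the counts were 163 and 114. After adjustment, 20 of the 194 were called in the knockout, among the 33 called there (0.231%). The knockout count rested on single libraries: leaving out 1 of the 8 gave 18, 0, 2 and 3 calls without KO_BL 1 to 4, and 70, 8, 0 and 35 without KO_SD 1 to 4. Without KO_BL 2 and without KO_SD 3, where limma called 0, 1204 and 1335 genes had an unadjusted p under 0.05, against 1772 with all 8 libraries. Those that went the other way were Sult1a1 (log2 fold change -0.025 ± 0.34 SE in the knockout), Cdkn1c (0.14 ± 0.304 SE) and Gm6768 (0.63 ± 0.766 SE). Without KO_BL 2, Sult1a1 stood at 0.24 and 192 of the 194 had the same sign, and the value of Cdkn1c ran from -0.10 to 0.37 with single knockout libraries left out. In wild type, Cdkn1c, the cell cycle inhibitor p57, fell with a log2 fold change of -0.65 ± 0.141 SE (adjusted p = 0.0494), a call that ended without any 1 of the 8 libraries (adjusted p up to 0.175). Gm6768 passed the filter on low values through its WT_BL libraries alone, so its difference is given only as values, 72.1, 59.1, 64.2 and 54.2 (WT_BL 1 to 4), then 5.33, 4.11, 0.989 and 0.775 (WT_SD 1 to 4).

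Side by side, the log2 fold changes in wild type and knockout were 1.61 and 1.48 for Cdkn1a, 0.69 and 0.78 for P4ha1, 0.91 and 0.82 for Spry4, and -1.41 and -1.13 for Pla2g4e. They were further apart for Plin4 (2.75 and 0.80), Etnppl (1.16 and 0.14), Mfsd2a (0.90 and 0.30), Fkbp5 (0.68 and 0.20) and B3galt1 (-0.77 and -0.076). KO_BL 2 was the highest baseline library for Plin4, at 236 normalized counts against 24.5, 26.3 and 11.5 in KO_BL 1, 3 and 4. It stood likewise for Etnppl, at 1037 against 428, 391 and 205. Without KO_BL 2 the knockout values were 1.68 ± 0.343 SE for Plin4, 0.56 ± 0.259 SE for Etnppl, 0.47 ± 0.167 SE for Mfsd2a, 0.33 ± 0.177 SE for Fkbp5 and -0.34 ± 0.37 SE for B3galt1. Other omissions moved them away from wild type. Without KO_BL 4 they were 0.26 for Plin4, -0.22 for Etnppl, 0.19 for Mfsd2a, 0.14 for Fkbp5 and 0.046 for B3galt1. Without KO_SD 4, Fkbp5 stood at 0.063. The glucocorticoid list had a median of 0.45 in wild type and 0.21 in the knockout, with 38 and 30 of 40 members at a higher mean. Without KO_BL 2 the knockout median was 0.30, with 33 of 40 at a higher mean. A test of the difference between genotypes over all 16 libraries called no gene (limma interaction, smallest adjusted p = 0.588; 149 genes, or 1.04%, at an unadjusted p under 0.05). The edgeR test of the interaction on recovered reads also called 0, with 163 at an unadjusted p under 0.05. Of the 194 genes, 12 had an unadjusted interaction p under 0.05, among them Plin4, Sult1a1, Etnppl, Mfsd2a, Cbln4, Hs3st5 and Gabrd. Without KO_BL 2 the limma interaction called 0 genes with 120 at an unadjusted p under 0.05, of which 5 were among the 194, and Plin4, Etnppl, Mfsd2a and Cbln4 were no longer below it. No gene can therefore be called particular to the wild type. Striatal markers were lower in KO_SD too, with a median of -1.15.

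**Figure D4:**
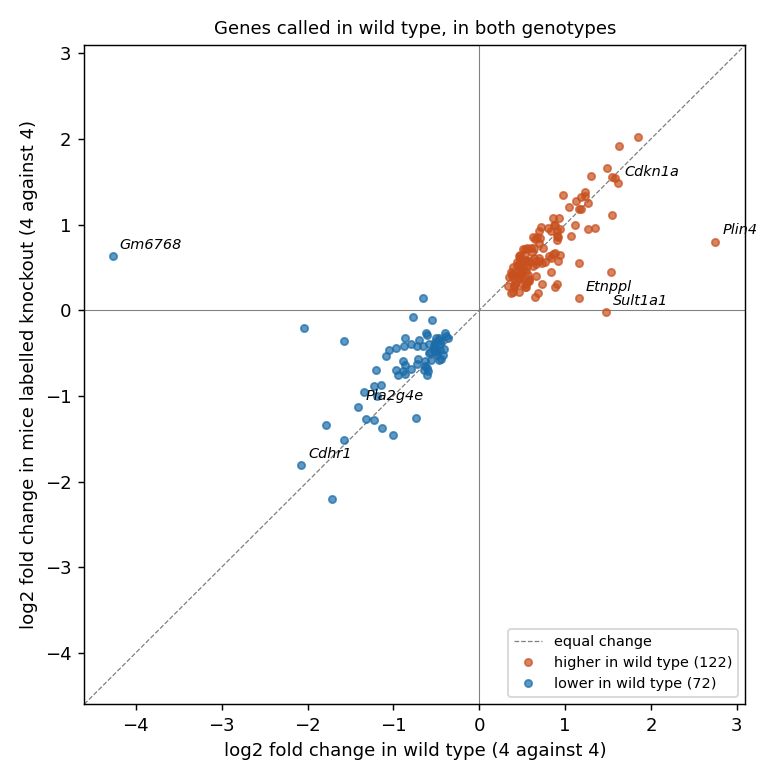
Log2 fold change of deprived over baseline mice in wild type (horizontal) and in mice labelled knockout (vertical) for the 194 genes called in wild type, 4 against 4 animals on each axis; the dashed line marks equal change. All but 3 genes lie in the quadrants of equal sign, and Plin4 (2.75 and 0.80), Etnppl (1.16 and 0.14) and Sult1a1 (1.47 and -0.025) lie well below the line. Without KO_BL 2 their knockout values were 1.68, 0.56 and 0.24. Without KO_BL 4 those of Plin4 and Etnppl were 0.26 and -0.22.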

How the data were processed

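Per the labels' protocols, cortex RNA was purified on RNeasy columns, treated with DNase I and run on a HiSeq2500. RSEM 1.2.19, edgeR, mm10 and GRCm38 are named, without a role, in the submitters' processing notes; the sources used here do not state strandedness. Normalized counts, the signal analysed, are gene counts that the authors scaled with 1 factor for each library (source: the file headers, and regular steps among low values). Of the deposited columns with per-sample values, 112 were not used here. Whole reads were recovered by dividing each library by its step. Of the values of at most 20 reads, 100% were then within 0.1 of a whole number. Chi-square per degree of freedom between replicates was at least 7.94, so no library was taken for a duplicate.

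The test was limma 3.58.1 (R 4.3.3) applied to log2(normalized count + 1) with the trend and robust options of eBayes, two-sided and with Benjamini-Hochberg adjustment over the 14310 genes and a threshold of 0.05. This log2 scale understates changes of low genes. Each library is 1 animal, so p-values measure the spread between 4 animals a group. Other scalings, filters and pseudocounts, limma-voom, a model of all 16 libraries, the replicate number as a block, a striatal covariate and leaving out each library were tried. Leaving out each knockout library was added after seeing the data. Tests with edgeR 4.0.16 and DESeq2 1.42.0 on recovered reads were also run. edgeR called 179 genes (1.25%), of which 177 were among the 194. The authors' deposited table gave a false discovery rate, an adjusted p-value of theirs, under 0.05 for 642 genes, among them all 194. The log2 ratios and the GC fraction per gene in the authors' sheets were not used. Fits were tested on simulated data.

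The members and the lists were chosen with earlier results of these data known. Named genes were the 25 highest and 25 lowest called genes with a mean count of at least 100 and groups apart, up to 4 called members per list, and markers. One gene picked by this rule is not reported here. Arhgap31, Arhgap42, Arpc5, Bcl6, Chpf2, Dnajc1, Dusp4, Dusp5, Eml2, Fkbp5, Galnt9, Gucy1a3, Hs3st5, Htra1, Ina, Mastl, Mat2a, Mettl16, Mical2, Micalcl, Myh10, Pak7, Papola, Pglyrp1, Plekhg4, Rnf144a, Sfpq, Sgk1, Slc5a3, Spns2, Tpm4, Trib2, Wnt2, mt-Rnr1 and mt-Rnr2 were named after their values were seen. Positions came from GENCODE M21 (GRCm38), which matched 14255 of 14310 genes, and promoters from RefSeq. Genes on overlapping or near-identical loci may share reads.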

Additional observations from a re-analysis of the deposited data

Results flagged for a closer look

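In each of 220 groups of 4 libraries (the named genes in WT_BL and in WT_SD), the highest and the lowest library were compared with the rest, and a gap that passed Dixon's 95% limit as a share of the group's range was noted. Chance gives about 1 in 20 groups, and 11 were found. In WT_BL 4, Nts stood at 25.3 normalized counts against 59.2 to 64.5 in the other baseline libraries, Serinc2 at 159 against 92.9 to 102 and Micalcl at 70.8 against 39.4 to 41.9. In WT_BL 2, Tshz2 stood at 1421 against 719 to 829, Ormdl2 at 74.7 against 86.5 to 88 and Camk1g at 466 against 574 to 594. In WT_BL 3, Sema6b stood at 2039 against 1507 to 1528. In WT_SD 1, Tpm4 stood at 889 against 699 to 724 and Dact2 at 486 against 758 to 810.3 in the other deprived libraries. In WT_SD 2, Ormdl2 stood at 132 against 151 to 154. In WT_SD 3, Mastl, a mitotic kinase that was lower after deprivation, stood at 19.8 against 14 to 14.7. All these values stayed on their group's side of the other group.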

How the results depend on the processing

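The count of 194 genes (122 higher, 72 lower) lay within 1.5 times of itself with limma-voom, with edgeR, with filters or pseudocounts changed and with TMM, quantile or median-of-ratios scaling. It rose to 663 with DESeq2 (356 higher, 307 lower), and it fell to 79 in 1 model of all 16 libraries (60 and 19), to 102 without the trend and robust steps (66 and 36) and to 19 with the striatal score as a covariate (16 and 3). Leaving out 1 library gave 46 to 508 genes, 38 to 209 higher and 8 to 299 lower. No called gene changed sign under these alternatives. For the 193 called genes whose groups did not overlap, leaving out a library cannot reverse the sign, so this is no further support. No scaling or other alternative moved the median of all genes by more than 0.0094 (log2). Medians of gene lists are not bound in that way. Of 62 lists with at least 5 tested members, 26 changed sign under at least 1 alternative. Of these, 19 did so with 1 library left out, 5 with another scaling and 14 with the striatal covariate. Among the 14, the striatal list itself does so by construction. Of the 26, 23 had a median within 0.1 of 0. Among the lists in the text, the median moved from 0.13 to -0.03 for thalamus and from 0.061 to -0.0091 for the mitochondrial genome without WT_SD 2. It moved from 0.03 to -0.001 for glycogen and glucose and from 0.027 to -0.014 for inflammation without WT_BL 2, and from 0.21 to -0.044 for mature oligodendrocytes and 0.089 to -0.034 for splicing factors with the striatal covariate. In the knockout the 33 calls became 34 with edgeR, and 0 to 70 with 1 library left out, an alternative chosen after seeing the data. With 1 knockout library left out, the knockout log2 fold change ran from -0.22 to 0.56 for Etnppl and from -0.36 to 0.19 for B3galt1, which thus changed sign, and from 0.26 to 1.68 for Plin4. The range was 0.19 to 0.47 for Mfsd2a and 0.063 to 0.33 for Fkbp5.

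With the replicate number as a block the count was 230, of which 159 were among the 194. Deviations of same-numbered WT_BL and WT_SD libraries correlated at 0.296, -0.142, -0.0969 and -0.0721, and only number 1 correlated best with its own number, so the numbers were not taken to pair animals. The block gave 47 calls in the knockout and 0 in the interaction.

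Lower genes rest on fewer stable calls: 5 of 72 against 20 of 94 higher ones outside the 3 lists.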
